A study of Mus musculus with 12 samples.

Results

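The transcripts described here encode 9 secreted proteins by which T cells act on their neighbours: the chemokines Ccl3, Ccl4, Ccl5, Xcl1 and Cxcl10, and the cytokines Ifng, Il4, Csf1 and Csf2. They were picked by gene symbol, with earlier results of these data known. All 9 had a row among the 14004 genes of the deposited RNA-seq table, and all 9 passed the filter on low values (an adjusted value of 10 or more in 3 or more libraries), as did 13058 genes in all. The cells were type 1 invariant natural killer T (iNKT1) cells, sorted as CD1d-tetramer+ YFP+ cells from the thymus and the liver of mice. In 1 genotype, cKO, mice carried Tbx21Cre, Ets1F/F and Rosa26-YFP+. In the other, control, they carried Tbx21Cre and Rosa26-YFP+ without the floxed Ets1 alleles. Each of the 4 groups (cKO thymus, control thymus, cKO liver and control liver) had 3 libraries. Cre was driven by Tbx21, the gene of the transcription factor T-bet, so recombination and the YFP mark were limited to cells that had expressed Tbx21, in cKO and control mice alike. The labels give no age, and do not say whether libraries came from separate mice, so p-values measure the spread between these libraries, which may be technical.

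iNKT cells recognise lipids presented by CD1d and release cytokines within hours of activation, since their cytokine loci are already open and transcribed at rest. iNKT1 cells are known for interferon gamma and for cytotoxicity, iNKT2 cells for interleukin 4 and interleukin 13. Chemokines act through G protein-coupled receptors on other leukocytes: Xcl1 draws cross-presenting dendritic cells through Xcr1, and Cxcl10 acts through Cxcr3. Ets1 is a transcription factor of the ETS family, which bind DNA around a GGA core.

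The recovered depth was 18.49 to 43.44 M reads in 10 libraries, but 3.205 M in cKO liver library 2 and 3.867 M in control liver library 3. One read was worth 0.615 to 6.66 units of the adjusted values, and a library with no read of a gene can hold a small value above 0. The number of genes with no read was 3528 in control thymus library 1 and 2824 in library 2, but 1782 in library 3. Ets1 had adjusted values of 11817, 7069 and 5788 in cKO thymus, against 23692, 28051 and 19493 in control thymus, and of 3594, 4425 and 5787 in cKO liver, against 18773, 18528 and 15910 in control liver. It was lower in cKO cells in both tissues (log2 fold change -1.58 ± 0.27 SE in thymus, limma adjusted p = 0.0095, and -1.97 ± 0.27 in liver, adjusted p = 0.0012). The thymus call was lost with the thymus libraries alone in the fit (adjusted p = 0.59), without cKO thymus library 3 (0.072) or control thymus libraries 1 and 2 together (0.4), and the liver call without the 2 libraries of lowest depth (0.059). All 8 general T cell markers and all 10 iNKT1 markers had reads in every group, although the iNKT1 list includes Ifng, Xcl1 and Ccl5 themselves. Of 8 neutrophil markers none had a row. Fold changes below are limma estimates on log2(value + 1), in which the added 1 shrinks the change of genes near 0. They compare means of logs, and so can be larger or smaller than the ratio of the mean values. The adjusted p-values are over all 13058 genes. In bulk samples, fewer cells making a transcript and less transcript per cell cannot be told apart.

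Among the 9 genes, Xcl1 was the only one called between genotypes by limma or edgeR. It was lower in cKO cells of the liver. DESeq2 also called Ccl5 and Cxcl10 in thymus and Cxcl10 and Csf1 over both tissues. It gave no adjusted p for Ccl3 and Ccl4 in any contrast. Ccl5 was called between tissues, higher in liver than in thymus in cKO cells, and Cxcl10 was called between tissues in control cells, also higher in liver. In thymus no member was called between genotypes (0 of 9 by limma, 0 by edgeR and 2 by DESeq2), where limma called 0.636% of all genes tested; 3 of 9 had an unadjusted p under 0.05, as had 13.2% of all genes. In liver 1 of 9 was called, where 0.505% of all genes were. Over both tissues 1 of 9 was called (1 by edgeR and 3 by DESeq2), against 2.27% of all genes. The median log2 fold change of the 9 genes was 0.48 in thymus and -0.39 in liver, beside 0.24 and 0.03 over all genes tested. With Ccl3, which had no read in control thymus, set at its lower bound the thymus median stayed 0.48.

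**Figure D1:**
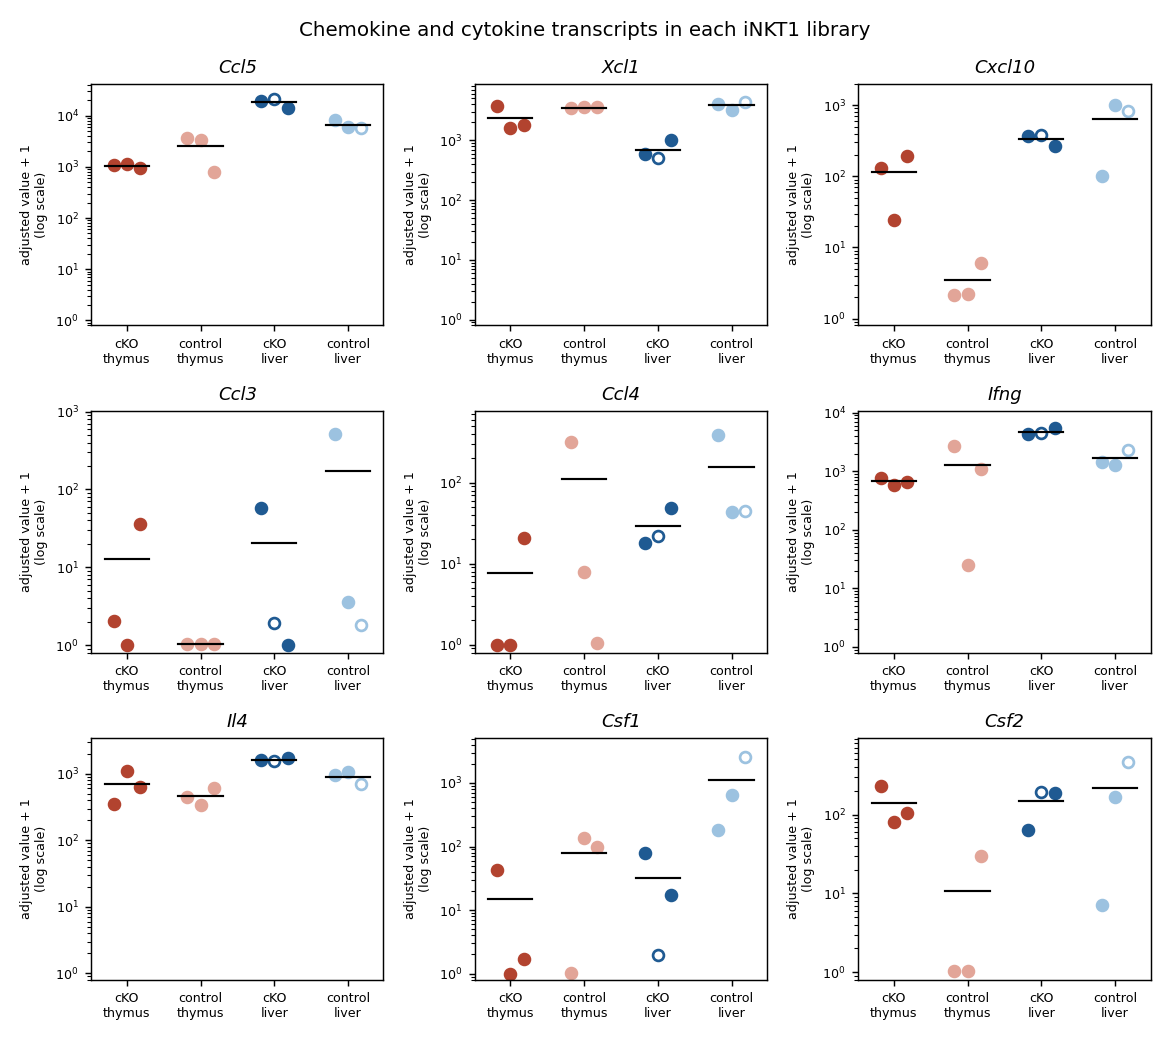
Adjusted value + 1 (log scale) of the 9 genes in each library, grouped as cKO thymus, control thymus, cKO liver and control liver; points are libraries, bars are means of 3 libraries, and open circles mark the 2 libraries of lowest depth. Xcl1 lies between 494 and 999 in cKO liver and between 3230 and 4420 in control liver, while Ccl3, Ccl4 and Csf1 spread widely within groups.

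Xcl1 encodes lymphotactin, the C-family chemokine, which binds Xcr1. In liver it had adjusted values of 592, 494 and 999 in cKO cells, against 4054, 3230 and 4420 in control cells. Every cKO liver library lay below every control liver library, and the cKO mean was 0.178 times the control mean. The log2 fold change was -2.54 ± 0.42 (SE, n = 3 and 3, limma adjusted p = 0.0062). In thymus the values were 3760, 1584 and 1803 in cKO cells, against 3467, 3535 and 3547 in control cells. The 3 control thymus libraries were nearly equal, with a mean of 3517 ± 43.0 (SD), whereas cKO thymus library 1 lay above them and the other two below. The thymus log2 fold change was -0.67 ± 0.42 (adjusted p = 0.52), and over both tissues it was -1.61 ± 0.30 (adjusted p = 0.0061). The genotype effect in liver less that in thymus was -1.87 ± 0.60 and was not called (unadjusted p = 0.0055, adjusted p = 0.87), so the genotype effects are not shown to differ between tissues. In that test limma called 0 of 9 members (3 at an unadjusted p under 0.05, a level passed by 5.38% of all genes, 0 by edgeR and 2 by DESeq2) and 0.00766% of all genes.

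The liver call for Xcl1 depended on cKO liver library 2, which had 74 Xcl1 reads at the lowest depth of the series. Without it the log2 fold change was -2.33 and the limma adjusted p was 0.06 (8.9e-07 to 0.22 across the alternatives). Leaving out both libraries of lowest depth, it was -2.23 (adjusted p = 0.22) in liver and -1.45 (adjusted p = 0.079) over both tissues. Count models on the recovered reads called it in liver, with -2.49 by edgeR (adjusted p = 0.010) and -2.48 by DESeq2 (adjusted p = 8.9e-07).

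Xcl1 (ENSMUSG00000026573) lies on chromosome 1 at 164931644 to 164935527 (minus strand, GRCm38). Its promoter window is shown because Xcl1 is the member called lower in cells in which a factor of the ETS family was deleted. The window of RefSeq (GRCm38.p6), chr1:164935473-164935772 on the minus strand, runs from 250 bases before to 50 bases after the start. Capitals mark, in order, a T-box match and an ETS match.
Xcl1: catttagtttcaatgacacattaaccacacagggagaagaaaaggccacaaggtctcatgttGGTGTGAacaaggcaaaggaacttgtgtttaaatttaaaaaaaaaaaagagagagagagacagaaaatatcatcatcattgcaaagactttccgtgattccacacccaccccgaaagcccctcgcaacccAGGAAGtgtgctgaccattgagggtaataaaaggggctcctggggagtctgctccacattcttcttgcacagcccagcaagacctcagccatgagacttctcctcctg
The ETS match AGGAAG lies at -58 to -53 from the start, and 35.4% of 32851 RefSeq promoter windows of this length hold it on either strand. The T-box match GGTGTGA lies at -188 to -182, and 3.98% of windows hold it. T-bet is a T-box factor. A match is a run of letters, not a shown binding site. Of the 7 members with a window in the table, Xcl1 was the only one with a match to either of these motifs.

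Ccl5 encodes RANTES, which memory T cells and NK cells hold as transcript in large amounts. Its adjusted values were 19394, 21105 and 13970 in cKO liver, against 8074, 5903 and 5821 in control liver. The liver groups did not overlap, with cKO cells 2.75 times as high by the means. The log2 fold change was 1.46 ± 0.45 and did not pass the test (limma adjusted p = 0.22). It did with the liver libraries alone in the fit (adjusted p = 0.0023, log2 fold change 1.45), with control thymus library 3 left out (adjusted p = 0.026) and with control thymus libraries 1 and 2 left out (adjusted p = 0.01). In thymus Ccl5 had 1071, 1129 and 940 in cKO cells, against 3637, 3356 and 777 in control cells. Control thymus library 3 lay below all 3 cKO libraries and the other two control libraries lay above them. The thymus log2 fold change was -1.02 ± 0.45 (adjusted p = 0.33). It was -1.74 once control thymus library 3 was left out (adjusted p = 0.0063), but 0.42 once control thymus libraries 1 and 2 were left out (adjusted p = 0.84), so that the control thymus libraries in the fit set both the direction and the call. With all libraries, edgeR gave -1.32 (adjusted p = 0.23), and DESeq2 called it lower in cKO thymus (-1.36, adjusted p = 0.049).

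Between tissues, Ccl5 was higher in liver than in thymus in cKO cells by 4.10 ± 0.45 on the log2 scale (limma adjusted p = 0.00035), 17.4 times by the means. All cKO liver libraries lay above all cKO thymus libraries. The call held in all 21 alternatives, with adjusted p-values of 1.6e-16 to 0.036. The 7 hepatocyte markers with a row (of 8) summed to 797 to 1661 in cKO liver, against 8.25 to 442 in cKO thymus, and the 7 macrophage and monocyte markers with a row (of 12) to 805 to 1157 in cKO liver, against 169 to 328 in cKO thymus. Their part in the tissue difference was not tested. In control cells the liver was higher by 1.62 ± 0.45 (adjusted p = 0.12), with no overlap between liver and thymus libraries. The genotype effect in liver less that in thymus was 2.47 ± 0.64 (unadjusted p = 0.001, adjusted p = 0.71). It passed the test without control thymus library 3 (3.20, adjusted p = 0.0046) and by DESeq2 (2.82, adjusted p = 0.0029), the adjusted p running between 0.0029 and 1 across alternatives. Ccl5 (ENSMUSG00000035042) lies on chromosome 11 at 83525778 to 83530518 (minus strand), 117.3 kb from Ccl3.

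Xcl1 and Ccl5 together made up most of the signal of the 9 genes in every library, and their ratio within a library does not depend on scaling between libraries. The ratio of Ccl5 to Xcl1 was 32.76, 42.69 and 13.99 in cKO liver, against 1.99, 1.83 and 1.32 in control liver. In thymus it was 0.285, 0.713 and 0.521 in cKO cells, against 1.05, 0.949 and 0.219 in control cells. The lowest cKO liver ratio was thus above the highest ratio of every other group. Ccl5 made up 73.3%, 74.9% and 61.8% of the summed values of the 9 genes in cKO liver, against 51.3%, 44.3% and 34.0% in control liver. Xcl1 made up 2.24%, 1.75% and 4.42% in cKO liver, against 25.8%, 24.3% and 25.8% in control liver. These shares are a description of the libraries and were not tested.

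**Figure D2:**
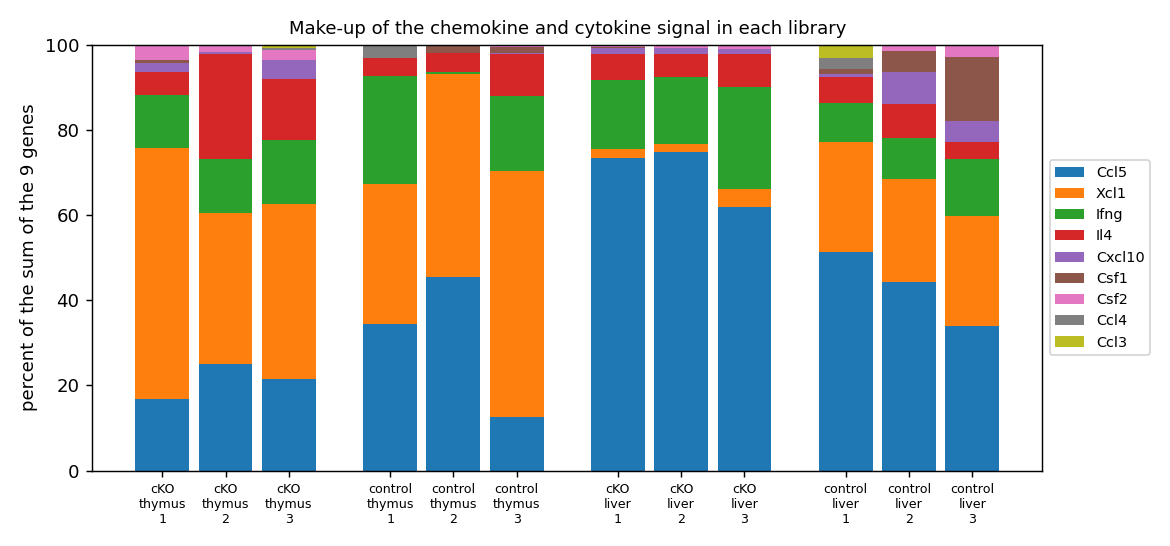
Percent of the summed adjusted values of the 9 genes contributed by each gene (y axis) in each of the 12 libraries (x axis), from cKO thymus on the left to control liver on the right. In cKO liver Ccl5 makes up 61.8% to 74.9% and Xcl1 1.75% to 4.42%, and in control liver Xcl1 makes up 24.3% to 25.8%.

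Summed markers of some other cell types differed between genotypes in the liver samples, although limma called none of these markers there. The summed adjusted values of 7 NK and ILC1 markers with a row (of 8) were 15995 to 20903 in cKO liver, against 8743 to 10570 in control liver. Most of that sum was Rora, with 17453, 14231 and 14772 in cKO liver against 5911, 8984 and 6433 in control liver. The sums stood apart in thymus too, at 15246 to 19949 in cKO cells against 5874 to 9285 in control cells. Limma called Rora higher in cKO thymus. Ncr1, which defines NK cells and ILC1, had 233, 0.936 and 0.834 in cKO liver, against 616, 13.7 and 131 in control liver. Klra7 had 470, 579 and 406 in cKO liver, against 43.5, 57.5 and 255 in control liver, and Klra8 had 1337, 141 and 8.58 in cKO liver, against 42.6, 1.69 and 61.8 in control liver. Klre1 was in the other order, at 1109, 741 and 951 in cKO liver, against 1494, 1281 and 1587 in control liver. Klri2 had 191, 267 and 0 in cKO liver, against 728, 232 and 267 in control liver. Eomes had 110, 34.2 and 59.4 in cKO liver, against 395, 0 and 7.19 in control liver. Of 8 endothelial markers 2 had a row, summing to 1.16 to 88.8 in cKO liver, against 461 to 946 in control liver. Most of that sum was Pecam1, with 1.16, 88.0 and 31.0 in cKO liver, against 671, 458 and 623 in control liver. Of 8 B cell markers 6 had a row, summing to 79.3 to 178 in cKO liver, against 445 to 786 in control liver. Of 8 immature thymocyte markers 6 had a row, summing to 5441 to 8289 in cKO liver, against 10147 to 13718 in control liver. Nearly all of that sum was Themis and Cd4, which mature T cells also make. Cd4 had 832, 234 and 1657 in cKO liver, against 7921, 6440 and 6957 in control liver, while Rag1 and Dntt, which define immature thymocytes, had no read in any liver library. Of 8 iNKT17 markers 3 had a row, summing to 290 to 740 in cKO liver, against 2.28 to 318 in control liver. Their part in the liver differences of Xcl1 and Ccl5 was not tested.

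Cxcl10, an interferon-induced ligand of Cxcr3, was nearly silent in control thymus. It had adjusted values of 130, 23.3 and 190 in cKO thymus, against 1.14, 1.18 and 5.06 in control thymus, the last from 1, 1 and 4 reads. In liver they were 371, 379 and 264 in cKO cells, against 99.1, 1006 and 838 in control cells. Each cKO thymus library lay above each control thymus library, while in liver the groups overlapped. The genotype difference on the log2 scale was 4.80 ± 1.46 in thymus (limma adjusted p = 0.15) and -0.39 ± 1.46 in liver (adjusted p = 1). The liver effect less the thymus effect was -5.19 ± 2.07 (limma adjusted p = 0.91), and DESeq2 called it (-6.49, adjusted p = 0.006). DESeq2 on the recovered reads called the thymus difference (5.55, adjusted p = 0.00017), and limma adjusted p-values and those of the count models ran from 0.00017 to 0.66 over the alternatives. Between tissues, control liver was higher than control thymus by 7.17 ± 1.46 (adjusted p = 0.026), a comparison in which 0.605% of all genes were called.

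That tissue call for Cxcl10 was not stable. It held in 13 of 21 alternatives, among them edgeR (7.99, adjusted p = 0.027) and DESeq2 (8.07, adjusted p = 1.8e-09). It was lost with control libraries alone in the fit (7.17, adjusted p = 0.31), without any 1 of the cKO liver libraries (adjusted p = 0.054, 0.061 and 0.058), and without control liver library 2 (6.57, adjusted p = 0.19) or library 3 (6.70, adjusted p = 0.19). It was also lost without both libraries of lowest depth (6.70, adjusted p = 0.33) and on leaving out control thymus libraries 1 and 2 (6.18, adjusted p = 0.2). Summed markers of liver and stromal cells differed by tissue in the control libraries, although limma called none of these markers there. The 7 hepatocyte markers summed to 1421 to 1788 in control liver, against 110 to 868 in control thymus. The 2 endothelial markers, mostly Pecam1, summed to 461 to 946 against 72.9 to 302. The 7 macrophage and monocyte markers summed to 1298, 36.8 and 650 in control liver, against 315, 10.6 and 99.4 in control thymus. Of the dendritic cell list, 3 of 8 markers had a row, and the sum was 427 to 1762 in control liver against 159 to 893 in control thymus. The part of such cells in the Cxcl10 difference was not tested.

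Cxcl10 (ENSMUSG00000034855) lies on chromosome 5 at 92346638 to 92348889 (minus strand). Its promoter window, chr5:92348840-92349139 on the minus strand, is shown because it held more of the motifs searched than any other member's. Capitals mark, in order, overlapping NFAT and interferon response matches, an NF-kB match, a run of overlapping NF-kB matches and an AP-1 match.
Cxcl10: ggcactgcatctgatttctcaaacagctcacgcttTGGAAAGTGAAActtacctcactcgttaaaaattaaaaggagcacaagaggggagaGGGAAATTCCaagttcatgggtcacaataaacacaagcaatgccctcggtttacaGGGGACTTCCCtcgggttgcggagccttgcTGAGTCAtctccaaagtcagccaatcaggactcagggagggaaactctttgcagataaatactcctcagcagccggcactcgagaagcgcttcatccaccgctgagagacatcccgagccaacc
The interferon response match lies at -213 to -204, and 3.44% of all windows hold it. The NFAT match TGGAAA lies at -215 to -210, with 21.4% of windows holding it. NF-kB matches lie at -159 to -150, -104 to -95 and -103 to -94, with 8.46% of windows holding at least 1. The AP-1 match TGANTCA lies at -74 to -68, with 7.81% of windows holding it.

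**Figure D3:**
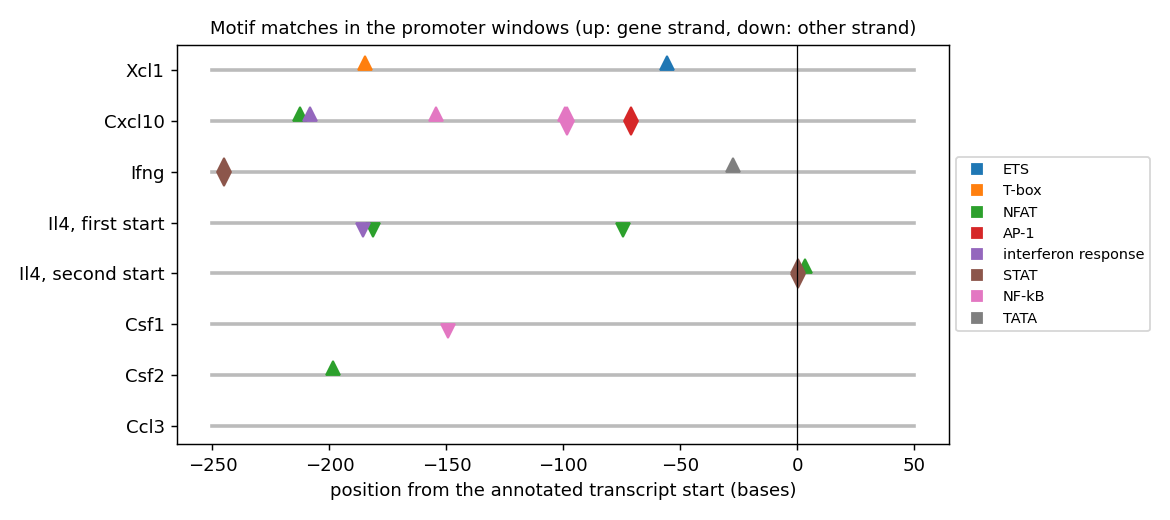
Motif matches by position from the annotated start (x axis, in bases) in the 8 RefSeq promoter windows of 7 members (y axis; Il4 has 2 starts); triangles pointing up are on the strand of the gene and triangles pointing down on the other strand. The ETS match of Xcl1 at -58 to -53 is the only ETS match among these windows, and Cxcl10 holds matches to 4 motifs.

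Ccl3 and Ccl4, which encode MIP-1 alpha and MIP-1 beta, are induced within hours of T cell receptor signalling, and Ccl3 was near 0 in most libraries. Ccl3 had adjusted values of 1.03, 0 and 34.6 in cKO thymus from 1, 0 and 47 reads, and no read in any control thymus library. Against a floor of 3 reads per library its cKO thymus mean was at least 3.37-fold higher, a bound that rests on 1 library. In liver it had 57.2, 0.90 and 0 in cKO cells, against 511, 2.54 and 0.81 in control cells. Single libraries thus held nearly all reads, 93 of 93 in cKO liver and 587 of 590 in control liver. The control liver mean was at least 48.6-fold higher than the floor in control thymus, again from 1 library.

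Ccl4 had adjusted values of 0.0046, 0 and 19.8 in cKO thymus, against 322, 6.97 and 0.044 in control thymus. In liver it had 17.1, 21.3 and 47.3 in cKO cells, against 387, 42.9 and 43.2 in control cells. The groups overlapped in both tissues, and the log2 fold changes were -2.33 ± 2.09 in thymus (limma adjusted p = 0.67) and -1.76 ± 2.09 in liver (adjusted p = 1). Ccl3 (ENSMUSG00000000982) and Ccl4 (ENSMUSG00000018930) are neighbours on chromosome 11, at 83647844 to 83649355 on the minus strand and 83662584 to 83664683 on the plus strand, 13.2 kb apart. The library with the most Ccl3 was also the one with the most Ccl4 in cKO thymus (library 3) and in control liver (library 1), but not in cKO liver, where library 1 led for Ccl3 and library 3 for Ccl4.

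Ifng encodes interferon gamma, the cytokine that defines type 1 effector cells. Adjusted Ifng values were 4300, 4429 and 5401 in cKO liver, against 1458, 1282 and 2271 in control liver. The liver groups did not overlap and the cKO mean was 2.82 times the control mean, but the log2 fold change of 1.53 ± 1.06 did not pass the test (limma adjusted p = 0.95). In thymus it had 782, 575 and 659 in cKO cells, against 2696, 24.3 and 1082 in control cells. The control thymus libraries spread over a wide range that held all 3 cKO values. The thymus log2 fold change was 0.67 ± 1.06 (adjusted p = 0.83), although the cKO mean was 0.530 times the control mean, and without control thymus library 2 it was -1.36 (adjusted p = 0.19). Because the 4 groups share 1 estimate of spread, the spread in control thymus enters the liver test too. With the liver libraries alone the liver difference passed (1.53, adjusted p = 0.0096), as it did on leaving out control thymus libraries 1 and 2 (adjusted p = 0.039), the adjusted p running between 0.0096 and 1 across alternatives.

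Between tissues in cKO cells, Ifng was higher in liver by 2.81 ± 1.06 (limma adjusted p = 0.46), 7.01 times by the means and with no overlap. That difference passed with the cKO libraries alone in the fit (adjusted p = 0.0027), on leaving out control thymus library 2 (adjusted p = 0.005) or libraries 1 and 2 (adjusted p = 0.0012) and by DESeq2 (2.83, adjusted p = 0.031). Ifng (ENSMUSG00000055170) lies on chromosome 10 at 118441046 to 118445892 (plus strand).

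Il4 encodes interleukin 4, which resting iNKT cells transcribe. Adjusted Il4 values were 1594, 1558 and 1723 in cKO liver, against 959, 1043 and 697 in control liver. The liver groups did not overlap, by 0.87 ± 0.57 on the log2 scale (limma adjusted p = 0.92). In thymus it had 353, 1099 and 626 in cKO cells, against 443, 335 and 604 in control cells, which overlapped (0.48 ± 0.57, adjusted p = 0.76). The ratio of Ifng to Il4 within a library was 2.70, 2.84 and 3.13 in cKO liver, against 1.52, 1.23 and 3.26 in control liver. In thymus it was 2.22, 0.523 and 1.05 in cKO cells, against 6.09, 0.0725 and 1.79 in control cells. The ratios overlapped between genotypes in both tissues.

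Il4 (ENSMUSG00000000869) lies on chromosome 11 at 53602982 to 53618669 (minus strand), 12.7 kb from Il13, the other type 2 cytokine gene of that locus. Il13, singled out after its values were seen, had 779, 1174 and 489 in cKO thymus, against 0, 438 and 318 in control thymus, and 637, 506 and 862 in cKO liver, against 51.3, 66.0 and 73.9 in control liver. Its libraries did not overlap between genotypes in either tissue. By limma the difference was 3.87 on the log2 scale in thymus (adjusted p = 0.30), 3.35 in liver (adjusted p = 0.74) and 3.61 over both tissues (adjusted p = 0.12), and DESeq2 called it over both tissues. The summed iNKT2 markers, which include Il4 and Il13, were 20164 to 28754 in cKO thymus, against 13047 to 23847 in control thymus, and 14918 to 17717 in cKO liver, against 14318 to 19254 in control liver.

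Csf2 encodes GM-CSF, which acts on myeloid cells. Its adjusted values were 231, 79.4 and 103 in cKO thymus from 225, 85 and 140 reads, against 0.0212, 0.0273 and 28.9 in control thymus from 0, 0 and 23 reads. Every cKO thymus library lay above every control thymus library, with a log2 fold change of 5.31 ± 1.86 that did not pass the test (limma adjusted p = 0.22). Without control thymus library 3 it was 6.93 (adjusted p = 0.045), which left control thymus libraries 1 and 2, with no Csf2 read. It was 3.81 by edgeR (adjusted p = 0.43) and 3.83 by DESeq2 (adjusted p = 0.18). Across the alternatives the adjusted p ran from 0.045 to 0.85. The 3 dendritic cell markers with a row (of 8) also stood apart in thymus, summing to 2277 to 6210 in cKO thymus, against 159 to 893 in control thymus. Itgax, which effector T cells can also express, had 6035, 2189 and 2494 of that in cKO thymus, against 0.0213, 5.81 and 444 in control thymus. Their part in the Csf2 and Cxcl10 values was not tested. In liver Csf2 had 63.2, 193 and 189 in cKO cells, against 6.06, 165 and 468 in control cells. The liver groups overlapped (0.70 ± 1.86, adjusted p = 1), and the sign turned by edgeR (-0.53) and DESeq2 (-0.54) and without control liver library 1 (-1.07). Csf2 (ENSMUSG00000018916) lies on chromosome 11 at 54247271 to 54249667 (minus strand), 629 kb from Il4.

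Csf1 encodes the macrophage growth factor M-CSF. Adjusted Csf1 values were 76.8, 0.985 and 16.3 in cKO liver from 125, 0 and 19 reads, against 178, 645 and 2554 in control liver from 205, 752 and 424 reads. The liver groups did not overlap, and the cKO mean was 0.0279 times the control mean. The log2 fold change of -5.59 ± 2.18 did not pass the test (limma adjusted p = 0.47, range 0.061 to 1 over the alternatives). In thymus it had 41.1, 0 and 0.690 in cKO cells, against 0.0212, 135 and 96.6 in control cells, which overlapped (-2.53 ± 2.18, adjusted p = 0.65). Over both tissues DESeq2 called a lower level in cKO cells (-3.84, adjusted p = 0.028), where limma gave -4.06 (adjusted p = 0.23). The summed values of the 2 endothelial markers with a row were also lower in cKO libraries. They were 0.923 to 68.5 in cKO thymus against 72.9 to 302 in control thymus, with the liver sums given above. Most of each sum was Pecam1, and Stab1 had at most 1.19 in any thymus library. In liver Stab1 had 0, 0.862 and 24.1 in cKO cells, against 276, 2.54 and 0.779 in control cells. Their part in the Csf1 values was not tested. Csf1 (ENSMUSG00000014599) lies on chromosome 3 at 107741048 to 107760469 (minus strand).

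**Figure D4:**
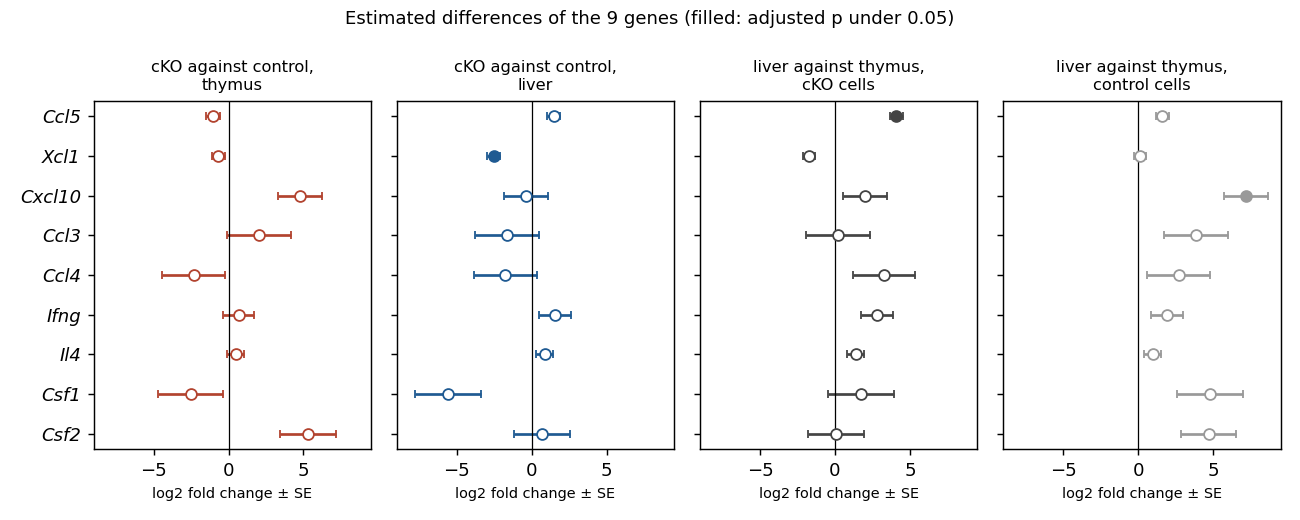
Limma log2 fold change ± SE (x axis) of the 9 genes (y axis) in 4 contrasts, cKO against control in thymus and liver and liver against thymus in cKO and control cells; filled points passed an adjusted p of 0.05. Xcl1 in liver (-2.54), Ccl5 between tissues in cKO cells (4.10) and Cxcl10 between tissues in control cells (7.17) are filled; the values of Ccl3 where control thymus enters depend on the added 1 and are no bound.

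Counted without a test, 2 of 9 genes had cKO libraries all above the control libraries in thymus (Cxcl10 and Csf2) and none had them all below, where 12.7% of all genes tested did not overlap in either direction. A library with no read was not counted as above another. In liver 3 were all above (Ccl5, Ifng and Il4) and 2 all below (Xcl1 and Csf1), where 18.5% of all genes did not overlap. Between tissues in cKO cells, liver lay all above thymus for Ccl5, Cxcl10, Ifng and Il4 and all below for Xcl1, 5 of 9 where 15.7% of all genes did not overlap. In that comparison 1 of 9 was called by limma (1 by edgeR and 3 by DESeq2), against 0.222% of all genes. In control cells liver lay all above thymus for Ccl5, Cxcl10, Il4 and Csf1, 4 of 9 where 14.9% did not overlap. The fitted log2 fold change of liver over thymus was positive for 8 of 9 genes in cKO cells (median 1.74, beside 0.09 over all genes tested) and for 9 of 9 in control cells (median 2.71, beside 0.28), although Xcl1 in control cells turned to -0.17 under TMM scaling. The tissue and genotype comparisons share libraries and are not independent of each other.

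Compared per kilobase of exon, Xcl1 was the most abundant of the 9 transcripts in cKO thymus (4555 ± 2291), control thymus (6724 ± 82.3) and control liver (7460 ± 1165; SD, n = 3 each). Ccl5 was first in cKO liver, at 18913 ± 3881 per kb. There Ifng was second (3637 ± 465), followed by Xcl1 (1329 ± 512) and Il4 (1324 ± 70.8), which did not differ beyond their spread. In control liver Ccl5 (6874 ± 1331) was within the spread of Xcl1, and Ifng (1290 ± 408) and Il4 (733 ± 147) followed. In cKO thymus Ccl5 (1090 ± 101) was second, ahead of Il4 (565 ± 308) and Ifng (519 ± 80.6), which did not differ beyond their spread. In control thymus Ccl5 (2698 ± 1642) was second and Ifng (979 ± 1039) had an SD above its mean. Csf1 was lowest in cKO thymus, cKO liver and control liver, and Ccl3 was lowest in control thymus. In control liver the means of Ccl4 (239 ± 300 per kilobase), Ccl3 (224 ± 384) and Csf1 (213 ± 238; SD, n = 3) lay closer together than their spread.

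Transcripts of many cytokines carry AU-rich elements in the 3' UTR, runs of the pentamer ATTTA by which decay factors such as tristetraprolin (Zfp36) shorten their life. In the GENCODE M21 transcripts, Csf2 held 9 pentamers (28.4 per kb), a density reached by 0.0459% of 10903 tested genes with a 3' UTR. Il4 held 2 (19.2 per kb, reached by 0.138%), Ccl3 held 5 (12.2 per kb, 0.468%) and Ifng held 6 (9.51 per kb, 1.06%). The median over those genes was 1.30 per kb. Xcl1 held 1 (7.09 per kb, reached by 2.33%) and Ccl4 held 2 (6.62 per kb, reached by 2.80%). Cxcl10 held 3 (3.01 per kb, reached by 19.7%) and Csf1 held 4 (1.89 per kb, reached by 37.1%). Ccl5 held 0 in a 3' UTR of 199 bases. Csf2 alone of the 9 held the nonamer TTATTTATT, 4 times, and 8.21% of tested genes hold it. A stretch of the Csf2 element is shown as the densest among the members, with the first nonamer in capitals.
Csf2: ttaaatatTTATTTATTtatttatt
Of 11 genes listed as regulators of mRNA decay, not all by way of ATTTA, all were tested and none was called by limma or edgeR in any of the 6 contrasts. Between genotypes none had an unadjusted p under 0.05 and DESeq2 called 0. Between tissues in control cells 2 had one and DESeq2 called 1 (Zfp36l2), and in cKO cells 1 had one and DESeq2 called 0. The share of all genes with such an unadjusted p is not given here for the tissue contrasts.

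Among the receptors of the 9 proteins, 10 of 14 genes had a row and 8 were tested. Ifngr1, the ligand-binding chain of the interferon gamma receptor, was higher in cKO cells over both tissues (log2 fold change 1.25 ± 0.22, limma adjusted p = 0.0034). It was the 1 of 8 called there, against 2.27% of all genes. Its adjusted values were 13480, 18849 and 16748 in cKO thymus, against 4363, 7962 and 10129 in control thymus, and 29089, 20773 and 21150 in cKO liver, against 13973, 8621 and 7051 in control liver. The groups did not overlap in either tissue. The call held in all 20 alternatives. Il2rg, the common gamma chain of the interleukin 4 receptor, and Cxcr3 were not called in any contrast by limma, edgeR or DESeq2.

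Of 33 transcription factors known to act on these genes, 31 were tested. Over both tissues Zeb2 was higher in cKO cells (6.71, limma adjusted p = 0.0015, held in all 20 alternatives). Ets1, the deleted gene (-1.77, adjusted p = 3.9e-05), and Stat4 (-0.81, adjusted p = 0.046) were lower. These were 3 of 31, against 2.27% of all genes. DESeq2 called these 3 and Rel over both tissues, and Rel, Nr4a1, Ets1, Egr1 and Stat4 in thymus. In thymus limma called 2 of 31, Ets1 and Stat4, against 0.636% of all genes. There 10 of 31 had an unadjusted limma p under 0.05, as had 13.2% of all genes. The Stat4 call over both tissues held in 7 of 20 alternatives, and leaving out any 1 library other than control thymus library 3 ended it (adjusted p up to 0.13). Stat4, which carries the interleukin 12 signal to Ifng, had 2395, 3144 and 2592 in cKO thymus, against 11773, 9191 and 5409 in control thymus (-1.64, adjusted p = 0.013). That call was lost in 6 of 21 alternatives: with the thymus libraries alone in the fit (adjusted p = 0.63), without control thymus libraries 1 and 2 (-1.01, adjusted p = 0.47), without the 2 libraries of lowest depth (0.062), and on leaving out cKO thymus library 1 (0.064) or 3 (0.068) or control thymus library 1 (0.055). In liver it had 10117, 8395 and 7929 in cKO cells, against 9647, 8932 and 7662 in control cells (0.01, adjusted p = 1). Zeb2, a partner of T-bet in the late effector state of T cells, had 8691, 4337 and 4646 in cKO liver, against 35.6, 107 and 6.96 in control liver (7.47, adjusted p = 0.022). The liver call was lost in 7 of 21 alternatives, by edgeR (adjusted p = 0.077), on leaving out any 1 liver library other than control liver library 2 (0.085 to 0.14) and without the 2 libraries of lowest depth (0.32). Tbx21 was not called in either tissue (0.95, adjusted p = 0.37 in thymus, and 0.92, adjusted p = 0.73 in liver), with values of 6321, 4831 and 4267 in cKO liver, against 2353, 3513 and 2321 in control liver.

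**Figure D5:**
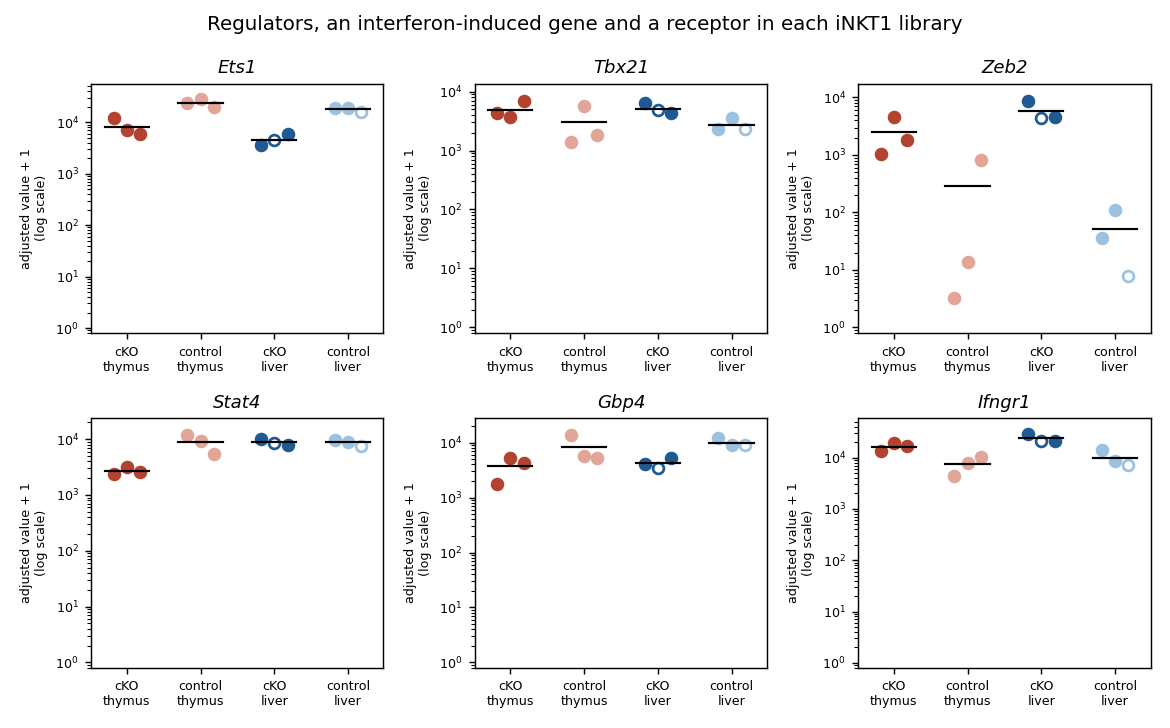
Adjusted value + 1 (log scale) of 4 transcription factors, the interferon-induced gene Gbp4 and the receptor Ifngr1 in each library, grouped as cKO thymus, control thymus, cKO liver and control liver; points are libraries, bars are means of 3 libraries, and open circles mark the 2 libraries of lowest depth. Zeb2 lies between 4337 and 8691 in cKO liver and between 6.96 and 107 in control liver, and Stat4 is lower in cKO thymus but not in cKO liver.

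Interferon gamma acts on many cells, where it turns on GTPase, antigen presentation and feedback genes. Of 22 genes it is known to induce 20 were tested. In liver, where every cKO library had more Ifng than every control library, 2 of 20 had a positive log2 fold change (median -0.62, beside 0.03 over all genes tested). None was called in liver by limma or edgeR, and DESeq2 called 1 (Gbp2). In liver 5 of 20 had an unadjusted limma p under 0.05. The share over all genes at that level is not given here for liver, so the count cannot be judged against it. In thymus 5 of 20 were positive (median -0.34, beside 0.24 over all genes tested), and none was called by any of the 3 tools. There 4 of 20 had an unadjusted limma p under 0.05, as had 13.2% of all genes. Over both tissues Gbp4, a guanylate-binding protein, was lower in cKO cells (-1.19 ± 0.29, limma adjusted p = 0.032), a call that held in 11 of 20 alternatives and was lost on leaving out cKO thymus library 1, control thymus library 1, cKO liver library 1 or 2, or any 1 control liver library (adjusted p = 0.06 to 0.1). It had 4030, 3386 and 5300 in cKO liver, against 11901, 9061 and 9048 in control liver.

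Other secreted factors were sparse. Of 33 other chemokine ligands 7 had a row and 6 were tested, and limma and edgeR called none in the 6 contrasts. In each contrast 0 of 6 had an unadjusted p under 0.05, except liver against thymus in control cells, where 1 did (Ccl1). DESeq2 called 1, Ccl25, between genotypes in thymus and over both tissues, and 0 in the other contrasts. The most abundant were Ccl25, Cxcl16 and Cxcl9. Of 41 other cytokines 16 had a row and 10 were tested, and limma and edgeR called none. At an unadjusted p under 0.05 there were 1 in thymus (Il13), 1 in liver (Ltb), 2 over both tissues (Il13 and Osm) and 1 in each tissue contrast, Il2 in control cells and Ltb in cKO cells, with 0 for the liver effect less the thymus effect. Of all genes tested, 13.2% passed that level in thymus and 5.38% for the liver effect less the thymus effect. No such share is given here for the other contrasts, that of Ccl1 included, so those counts cannot be judged against it. DESeq2 called 1, Il13 over both tissues, and 0 in the other contrasts. The most abundant were Il16, Tgfb1 and Ltb.

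By likeness of the 4 group means of log2(value + 1) (root mean square difference after centring, over 10483 genes with a mean of at least 50), the genes nearest to Ccl5 were Ccna2 (0.186), Zscan2 (0.198) and Pdlim7 (0.272). Those nearest to Xcl1 were Rab3a (0.111), Qsox1 (0.156) and Setbp1 (0.225). Those nearest to Cxcl10 were Abcb8 (0.332), Adam8 (0.363) and Fbf1 (0.479). The likeness is over 4 means only, and several of these genes vary widely between libraries, as Rab3a does with 44.3 ± 76.7 in cKO liver and 313 ± 524 in control thymus (SD, n = 3 each).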

How the data were processed

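RNA-seq libraries of sorted iNKT1 cells were made with Nugen's Ovation Ultralow kit from RNeasy total RNA, per the labels' protocols. Per the submitters' processing notes, the build was mm10 and the tools include HTSeq 0.6.1, DESeq2, STAR, TopHat2 2.1.0 and Trimmomatic 0.33, with no role or order. Use of strand was not given in the sources used here. The authors deposited 1 table of 14004 genes by 12 libraries, whose values are a library-size-adjusted signal. Inverting a negative binomial quantile adjustment (fitted dispersion 1.6) placed 96.6% of values within 0.1 of a whole read. That adjustment is inferred from the values. Symbols, positions, exon lengths and 3' UTRs came from GENCODE M21 (GRCm38, the assembly mm10 names; 13359 identifiers matched, 95.4%), and promoter windows from RefSeq GRCm38.p6. The motifs searched, on both strands and with overlaps allowed, were AGGAAG (ETS), GGTGTGA (T-box), TGGAAA (NFAT), TGANTCA (AP-1), TTCNNNGAA (STAT), TATAAA (the core promoter box) and the interferon response and NF-kB consensus sequences.

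The 13058 genes that reached a value of 10 in 3 or more libraries were tested with limma 3.58.1 (R 4.3.3) on log2(value + 1), in 1 model of 4 group means with an expression trend (residual degrees of freedom 8, prior 10.7), two-sided, with Benjamini-Hochberg adjustment and a threshold of 0.05. A quasi-likelihood count test had been planned for whole counts; the values being an adjusted signal, limma was used, with edgeR 4.0.16 and DESeq2 1.42.0 on recovered reads as alternatives. Named were all members, the called genes of each other list and up to 3 of its most abundant, and the 3 nearest genes of each called member, except that some of these genes are not reported here. The members and lists were chosen with earlier results of these data known. Annotated genes overlap Xcl1 (Gm20743), Cxcl10 (Art3) and Csf2 (Gm12223) on the other strand and Ifng (Gm49751) on the same strand, and reads of such pairs cannot be told apart here.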

Additional observations from a re-analysis of the deposited data

How the results depend on the processing

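Each of 6 contrasts was refitted under 21 alternatives (20 where all 4 groups enter). For single members 1049 values kept direction and side of the threshold, 20 passed it newly, 11 lost it and 36 turned sign. The 1049 include the DESeq2 values of Ccl3 and Ccl4, which kept direction but had no adjusted p. The causes were not tested. The called receptor, regulator and interferon-induced genes were put through the same alternatives after their calls were seen; 179 values kept the call, 47 lost it and none turned sign. Genes called numbered 83 in thymus, 66 in liver, 297 over both tissues, 1 for the difference of the genotype effects, and 79 and 29 between tissues in control and cKO cells. With a pseudocount of 10 they numbered 129 in thymus, 104 in liver, 3 for the difference and 54 between tissues in cKO cells. With only the groups compared they numbered 0 in thymus, 292 in liver, and 12 and 57 between tissues in control and cKO cells. Without the 2 libraries of lowest depth they numbered 22 in thymus, 7 in liver, 77 over both, and 18 and 3 between tissues in control and cKO cells. Without control thymus libraries 1 and 2 they numbered 4, 215, 185, 29 and 71 in the same order. By edgeR they numbered 51 in thymus, 39 in liver, 3 for the difference, and 49 and 18 between tissues in control and cKO cells. By DESeq2 they numbered 619, 272, 757, 112, 478 and 263 in the order first given. TMM scaling called 2 genes for the difference, and 27 of 117 calls in thymus were higher in cKO cells against 41 of 83 as deposited, 124 of 337 over both tissues against 154 of 297, and 37 of 110 higher in liver in control cells against 44 of 79. TMM moved the median log2 fold change of all genes from 0.236 to -0.031 in thymus, from 0.141 to -0.001 over both tissues, from -0.198 to 0.064 for the difference and from 0.280 to -0.005 between tissues in control cells. Leaving out 1 library at a time gave 21 to 541 calls in thymus, 21 to 126 in liver, 170 to 546 over both, 1 to 9 for the difference, and 27 to 395 and 3 to 44 between tissues in control and cKO cells.

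Members called numbered 0 in thymus (2 by DESeq2, 0 to 2 leaving out 1 library) and 1 in liver (3 with only the groups compared, 3 without control thymus libraries 1 and 2, 0 without the 2 libraries of lowest depth, 0 to 2 leaving out 1 library). They numbered 1 over both tissues (0 without the 2 libraries of lowest depth, 3 by DESeq2) and 0 for the difference (2 by DESeq2, 0 to 1 leaving out 1 library). Between tissues they numbered 1 in control cells (0 with only the groups compared, 0 without the 2 libraries of lowest depth, 0 to 1 leaving out 1 library). In cKO cells they numbered 1 (2 with only the groups compared, 2 without control thymus libraries 1 and 2, 3 by DESeq2, 1 to 2 leaving out 1 library). The same-numbered libraries of different groups had r of -0.096 to 0.08 in 18 pairs. With so few libraries a group, such values cannot show or exclude that the numbers pair them. In liver the same-numbered cKO and control libraries had r of 0.078, 0.080 and 0.072, and the differently numbered ones -0.057 to -0.010. In thymus the same-numbered cKO and control libraries had 0.041, -0.096 and -0.076. With the replicate number as a block 81, 71, 303, 1, 68 and 34 genes were called in the order first given, and no member gained or lost a call.

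Members turned sign as follows. In thymus, Ifng turned to -0.93 by edgeR, -0.97 by DESeq2 and -0.70 without control thymus libraries 1 and 2, which also turned Ccl4 (1.40) and Ccl5 (0.42); leaving out 1 library gave -1.36 to 2.01 for Ifng. In liver, Csf2 turned to -0.53 by edgeR and -0.54 by DESeq2, and leaving out 1 library gave -3.43 to 0.92 for Ccl3, -1.07 to 1.96 for Csf2 and -1.46 to 0.21 for Cxcl10. Over both tissues, Ccl3 turned to -0.16 with a pseudocount of 10 and -0.23 without the 2 libraries of lowest depth, and leaving out 1 library gave -0.71 to 1.47 for Ccl3 and -0.14 to 0.41 for Ccl5. For the difference, Ccl4 turned to -0.09 with a pseudocount of 10 and -3.16 without control thymus libraries 1 and 2, and leaving out 1 library gave -1.69 to 2.45 for Ccl4, -0.02 to 0.80 for Il4 and -0.48 to 2.89 for Ifng. Between tissues in control cells, Xcl1 turned to -0.17 under TMM and leaving out 1 library gave -0.08 to 3.29 for Ifng. In cKO cells, Csf2 turned to -0.18 without the 2 libraries of lowest depth, and leaving out 1 library gave -1.60 to 1.75 for Ccl3 and -0.22 to 0.62 for Csf2. Csf2 stayed positive in all alternatives over both tissues (1.38 to 3.82) and in thymus (2.06 to 6.93), and Ccl4 stayed negative in liver (-2.47 to -0.71). No control thymus library had a Ccl3 read at the depth reached, so its fold change in thymus has only a lower bound.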
